A study of Rattus norvegicus with 12 samples.

Results

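The genes followed were 7 peptide hormone, inhibin and receptor genes of the fetal testis, Insl3, Lhcgr, Prlr, Inha, Inhba, Inhbb and Fst. Every probe set of the array annotated to one of them was taken, whatever its values, which gave 12 of the 31042 probe sets that were not array controls. All 12 were among the 21730 probe sets tested after the lowest 30% by mean level were left out. Insl3, Inha and Inhbb had 1 probe set each, Lhcgr, Inhba and Fst had 2, and Prlr had 3.

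The study profiled total RNA from testes of embryonic day 16 rats on 12 Affymetrix arrays. The F1, F2 and F3 vinclozolin lineages had 2 arrays each, and so did the F1, F2 and F3 control lineages. The study asked whether dosing of a pregnant founder changes the fetal testis transcriptome in her offspring and in later generations. Vinclozolin is a fungicide with anti-androgenic metabolites. Founder females of the vinclozolin groups received 100 mg/kg/day by injection into the abdominal cavity on pregnancy days 8 to 14, and control founders received the sesame oil and DMSO vehicle. F1 embryos were in the womb during dosing, while the protocols name no further dosing for F2 or F3. Every RNA was pooled from about 10 testes of 1 treatment, so a p-value measured the spread between pools, which may be technical, and not between animals or litters. The treatment text of the F2 and F3 vinclozolin groups describes the parents as taken from control lines, which goes against the sample titles. The titles were followed, and the 2 descriptions could not be reconciled from the labels.

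Fetal Leydig cells lie between the testis cords and make testosterone and insulin-like factor 3, the peptide encoded by Insl3 that drives the first phase of testis descent. The receptor for luteinising hormone, encoded by Lhcgr, and the prolactin receptor, encoded by Prlr, are carried by Leydig cells. Inhibins pair the alpha subunit (Inha) with a beta A (Inhba) or beta B (Inhbb) subunit, activins pair beta subunits with each other, and follistatin (Fst) binds and inactivates activin. In the fetal testis activin A from Leydig cells is known, from mice, to drive Sertoli cell proliferation.

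Sequence just upstream of 3 member genes is shown because it held the nuclear receptor half-site AGGTCA. The windows are the 250 bases before the transcript start in RefSeq's rat assembly GRCr8, 5′ to 3′ on the gene's strand, and capitals mark motif matches. The annotated spans of Insl3 (chr16:18432668-18434539) and Lhcgr (chr6:11415361-11480834) begin inside or upstream of their windows. Inha spans chr9:84443109-84446010.
Insl3 (chr16:18432939-18433188, plus strand): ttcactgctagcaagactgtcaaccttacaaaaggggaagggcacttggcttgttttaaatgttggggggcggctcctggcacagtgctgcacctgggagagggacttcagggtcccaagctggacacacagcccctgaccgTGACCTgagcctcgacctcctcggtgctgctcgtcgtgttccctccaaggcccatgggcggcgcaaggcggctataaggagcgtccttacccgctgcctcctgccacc
Lhcgr (chr6:11415165-11415414, plus strand): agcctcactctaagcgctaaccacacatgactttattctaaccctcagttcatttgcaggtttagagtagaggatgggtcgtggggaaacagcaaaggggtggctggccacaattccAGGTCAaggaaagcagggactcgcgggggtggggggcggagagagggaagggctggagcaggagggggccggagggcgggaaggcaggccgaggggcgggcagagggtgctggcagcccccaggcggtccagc
Inha (chr9:84442859-84443108, plus strand): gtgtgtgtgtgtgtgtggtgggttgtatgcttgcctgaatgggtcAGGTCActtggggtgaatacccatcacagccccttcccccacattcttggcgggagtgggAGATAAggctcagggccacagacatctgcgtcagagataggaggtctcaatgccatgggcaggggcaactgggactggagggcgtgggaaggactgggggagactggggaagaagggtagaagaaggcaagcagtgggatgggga
The capitals in Insl3 and Lhcgr, and the first capitals in Inha, are matches on either strand to AGGTCA, the core site of many nuclear receptors. The match lay 108 bases before the start in Insl3, where it read on the opposite strand, 133 bases before it in Lhcgr and 205 bases before it in Inha. The second capitals in Inha are AGATAA, the letters read by GATA factors, 145 bases before the start. AGGTCA was present in 14.1% of 33469 rat promoter windows of the same length and AGATAA in 10.3%. The cAMP response element TGACGTCA, present in 1.59% of all windows, was in none of the member windows, and the AP-1 site TGANTCA, present in 6.34%, was in 1 of the Prlr windows only, which is not shown. Only these exact letters were searched, so variants of the sites, including those of the cAMP response element, were not counted. These matches describe letters in the windows and say nothing of binding. Prlr (chr2:60861391-61051883), Inhba (chr17:53787159-53810942) and Inhbb (chr13:33083671-33089373) had windows without AGGTCA, and Fst (chr2:47856345-47863670) was not searched. The Inhba window (chr17:53804509-53804758, minus strand) and the Prlr windows (chr2:60861515-60861764 and chr2:60909409-60909658, plus strand) lay inside the annotated spans of their genes.

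Signs of RNA quality moved with lineage on these arrays, so their part in the values below cannot be told apart from that of lineage. The ratio of 5' to 3' beta-actin signal, a measure of RNA integrity and labelling length, was 0.149 to 0.395 on vinclozolin arrays and 0.423 to 0.471 on control arrays. It was lowest in F1 vinclozolin (0.192 and 0.149), higher in F2 vinclozolin (0.246 and 0.219) and highest in F3 vinclozolin (0.395 and 0.360). Over all 12 arrays the exact permutation test was at its lower limit (2-sided p = 0.00216). The same ratio for Gapdh was 0.651 to 1.02 on vinclozolin arrays and 0.959 to 1.02 on control arrays (exact permutation test, p = 0.0411). It was 0.651 to 0.800 on the F1 and F2 vinclozolin arrays, while F3 vinclozolin (1.02 and 0.970) was not below F3 control (0.959 and 0.971). Array medians on the log2 scale were 5.85 ± 0.02 on vinclozolin arrays and 5.95 ± 0.03 on control arrays (SD, n = 6 each), a difference of −0.10. Defining markers of the tissue were present: summed signal of 11 fetal Leydig genes was 15235.3 to 17921.1 on vinclozolin arrays and 14953.4 to 15642.8 on control arrays, and that of 10 Sertoli genes was 8054.2 to 9274.1 on vinclozolin arrays and 8238.2 to 8670.5 on control arrays. In whole testis, fewer cells of a type and less RNA per cell cannot be told apart.

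Over the 12 probe sets, the number of members called in F1, F2 and F3 followed the order of the shares called over the whole array. A difference was called at an adjusted p under 0.05 in limma (moderated test, Benjamini-Hochberg over all tested probe sets). In F1 6 probe sets were called, 2 higher and 4 lower in vinclozolin testes, where 23.1% of all tested probe sets were called (9.41% higher, 13.7% lower). In F2 4 were called, 2 higher and 2 lower, against a background of 14.3% (4.7% higher, 9.65% lower). In F3 2 were called, both higher, against 3.11% (1.05% higher, 2.06% lower). On each generation's own arrays the order turned, with 3 members called in F1 and 5 in F2. The shares of all tested probe sets turned too, to 10.6% in F1 and 15.6% in F2. The member order also turned without F1 vinclozolin replicate 2 or either F1 control array, fits that leave 1 array in a group. The order of the whole-array shares turned with it, except without F1 control replicate 1. For the mean of the 3 generations 6 were called, 3 in each direction, where 33.3% of all tested probe sets were called (14.1% higher, 19.2% lower). The median log2 difference of the 12 was 0.13 in F1, 0.03 in F2 and 0.10 in F3, and that of all tested probe sets was −0.01 in each. Under median centring the split was 4 higher and 2 lower in F1, 3 higher and 2 lower in F2, and 3 higher and 2 lower for the mean. The shares of all tested probe sets called were then 27.0%, 18.8% and 38.3%. Among the control groups no member differed in limma's F test, with 0 members at an unadjusted p under 0.05, and 0% of all tested probe sets were called. With the beta-actin ratio, which did not overlap between the lineages, as a covariate, no member was called in any generation or for the mean, and 1, 1, 3 and 1 members had an unadjusted p under 0.05 in F1, F2, F3 and the mean.

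**Figure D1:**
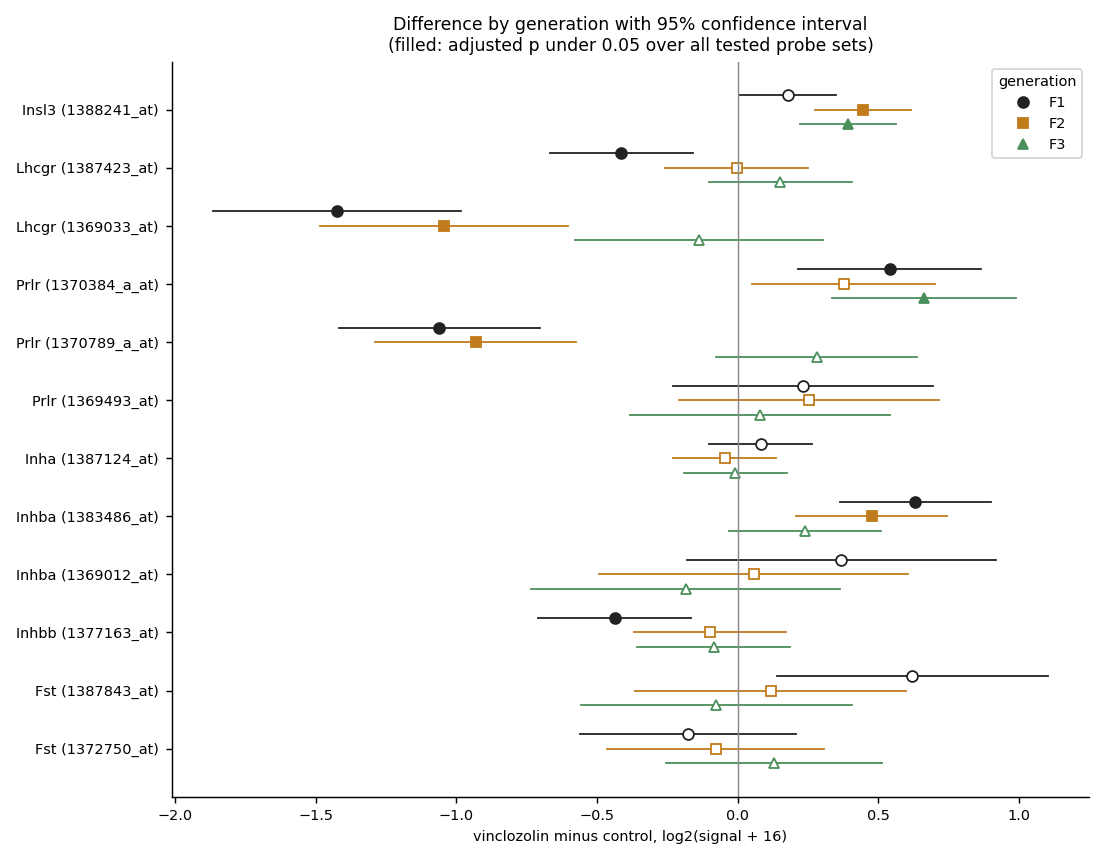
Difference between vinclozolin and control testes, in log2(signal + 16), for each of the 12 probe sets in F1 (black circles), F2 (orange squares) and F3 (green triangles), with 95% confidence intervals from limma. Filled symbols have an adjusted p under 0.05. Insl3 lies right of 0 in all 3 generations, filled in F2 and F3 only. The symbols of 1369033_at of Lhcgr and 1370789_a_at of Prlr lie far left of 0 and are filled in F1 and F2. In F3 they lie nearer to 0 and are open.

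Insl3 signal was higher in vinclozolin testes in every generation, and the difference passed the test in F2 and F3. Its probe set 1388241_at read 1220.2 and 1264.0 on F1 vinclozolin arrays, against 1076.3 and 1114.3 on F1 control arrays. It read 1402.2 and 1506.1 in F2 vinclozolin, against 1063.2 and 1061.5 in F2 control. It read 1212.3 and 1344.7 in F3 vinclozolin, against 969.9 and 967.9 in F3 control. All 6 vinclozolin arrays lay above all 6 control arrays, as was so, in either direction, for 13.2% of all tested probe sets. By group mean the order was F2, F3 and F1 vinclozolin and then F1, F2 and F3 control. The arrays of F3 and F1 vinclozolin overlapped, while no other neighbours in that order did. The log2 difference was 0.45 ± 0.08 in F2 (SE; limma, adjusted p = 0.00206) and 0.39 ± 0.08 in F3 (adjusted p = 0.0183), which passed the test, and 0.18 ± 0.08 in F1 (adjusted p = 0.124), which did not. Averaged over generations it was 0.34 ± 0.05 (adjusted p = 6.63e-05), a 1.27-fold difference. The F3 call was lost without F3 control replicate 1 (adjusted p = 0.173), F3 control replicate 2 (0.175) or F3 vinclozolin replicate 2 (0.196), and centring each array on its median brought F1 past the threshold (0.30, adjusted p = 0.0197). With the beta-actin covariate the difference turned to −0.21 in F1 and was 0.19 in F2, 0.32 in F3 and 0.10 over the generations, none past the test (adjusted p = 0.861, 0.748, 0.108 and 0.888).

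Genes of a fetal Leydig marker list are given beside Insl3. Whole testis does not show which cells their signal came from. Of 11 genes of that list tested, 2 rose and 2 fell in F1, 2 rose and 1 fell in F2, and 2 rose and 0 fell in F3. Over all genes, by brightest tested probe set, 11.2% were called higher and 9.01% lower in F1. The shares were 6.02% and 5.11% in F2, and 1.21% and 1.51% in F3. Hsd17b3, the enzyme that makes testosterone, rose by 0.45, 0.50 and 0.54 in F1, F2 and F3 (log2 difference; limma, adjusted p = 0.00988, 0.00955 and 0.0204). Star, which carries cholesterol into mitochondria, rose by 0.49 in F2 and 0.48 in F3 (adjusted p = 0.00205 and 0.00948) and differed by −0.23 in F1 (adjusted p = 0.0701). The F3 calls of both were lost without either F3 control array or F3 vinclozolin replicate 1 (adjusted p = 0.0951 to 0.175), and that of Hsd17b3 also without F3 vinclozolin replicate 2 (0.109). The Hsd17b3 call was lost in F1 without F1 control replicate 2 or F1 vinclozolin replicate 2 (adjusted p = 0.0953 and 0.0675) and in F2 without either F2 control array or F2 vinclozolin replicate 2 (0.0546 to 0.0810), and with the beta-actin covariate Hsd17b3 turned to −0.47 in F1 and −0.10 in F2 (adjusted p = 0.772 and 0.918). Hsd3b1, another enzyme of steroid synthesis, rose by 0.42 in F1 (adjusted p = 0.0117). Por, which passes electrons to steroid-making enzymes, fell by 0.71 in F1 (limma, adjusted p = 0.00226). Scarb1, a receptor for lipoprotein cholesterol, fell by 0.34 in F1 and 0.42 in F2 (adjusted p = 0.0198 and 0.0104). The Hsd3b1 and Scarb1 calls in F1 were lost without either F1 control array or F1 vinclozolin replicate 2 (adjusted p = 0.0551 to 0.110), and the Scarb1 call in F2 without either F2 control array or F2 vinclozolin replicate 2 (0.0537 to 0.0983). Median centring also ended the Scarb1 call in F1 (adjusted p = 0.100). With the beta-actin covariate Hsd3b1 turned to −0.78, Por to 0.16 and Scarb1 to 0.35 in F1, and Scarb1 to 0.03 in F2 (adjusted p = 0.523 to 0.973). Cyp17a1 and Cyp11a1, likewise enzymes of steroid synthesis, passed the test in no generation, with log2 differences of 0.07 to 0.23. Nor did the remaining genes of the list. Cyb5a differed by −0.17, −0.16 and −0.01 in F1, F2 and F3, and Nr5a1 by −0.05, 0.17 and −0.17. Fdx1 differed by −0.06, 0.12 and 0.29, and Tspo by 0.06, −0.02 and 0.28. The summed Leydig signal of F2 vinclozolin (16831.6 and 17661.0) and F3 vinclozolin (17921.1 and 16725.0) lay above F2 control (15642.8 and 15028.2) and F3 control (14953.4 and 15464.1), while that of F1 vinclozolin (15235.3 and 17619.9) overlapped F1 control (15275.9 and 15216.1). Its part in the Insl3 difference was not tested.

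**Figure D2:**
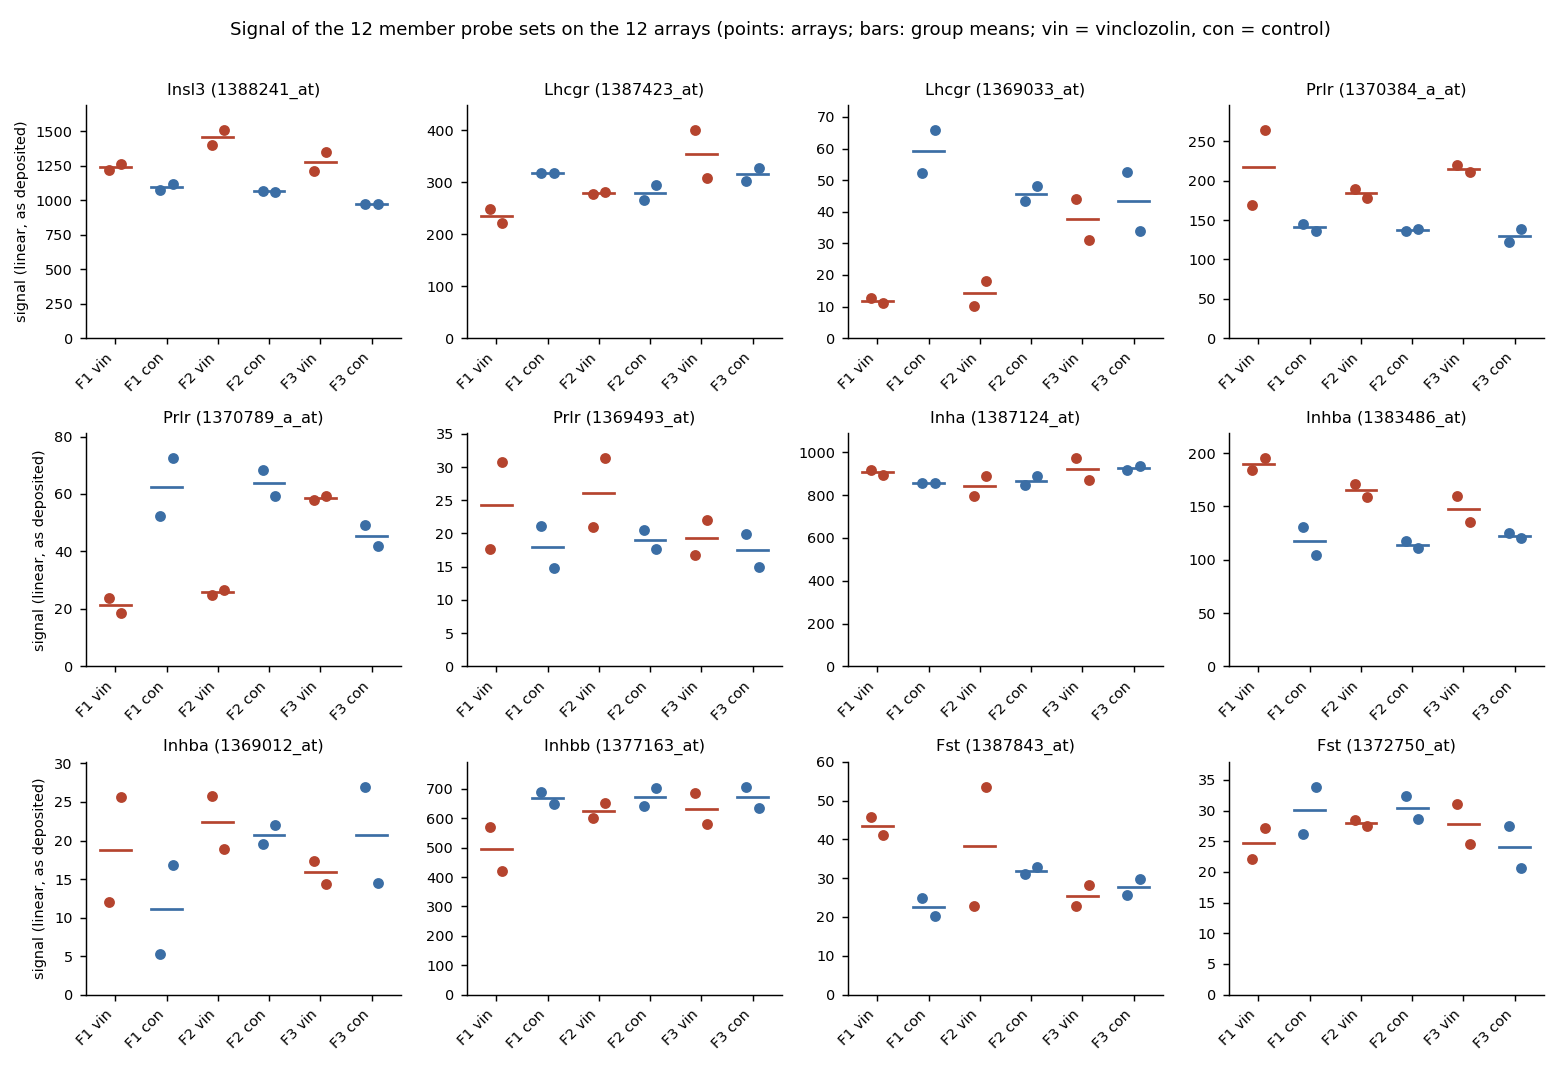
Signal, on a linear scale as deposited, of each of the 12 probe sets on the 12 arrays, with vinclozolin (vin, red) left of control (con, blue) in each generation, points for arrays and bars for the mean of the 2 arrays. Axes start at 0 and differ between panels; the 6 Insl3 vinclozolin arrays lie above the 6 control arrays, while Inha arrays of both lineages overlap.

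The 2 probe sets of Lhcgr, the receptor through which luteinising hormone drives steroid output, moved differently. On the brighter one, 1387423_at, F1 vinclozolin arrays read 248.4 and 220.4, against 317.0 on both F1 control arrays. F2 vinclozolin read 276.9 and 280.5, against 264.6 and 295.1 in F2 control, and F3 vinclozolin read 399.7 and 308.4, against 302.3 and 327.4 in F3 control. The lineages were apart in F1 and overlapped in F2 and F3. The log2 difference was −0.41 ± 0.12 in F1 (limma, adjusted p = 0.0206), 0.00 in F2 (−0.26 to 0.25, 95% interval) and 0.15 ± 0.12 in F3 (adjusted p = 0.549). The F1 call was lost under median centring (adjusted p = 0.0832), array weights (0.0658) and a fit on the 4 F1 arrays alone (0.0804), and without either F1 control array or F1 vinclozolin replicate 2 (0.0952 to 0.104). With the beta-actin covariate the F1 value turned to 0.41 (adjusted p = 0.820).

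The fainter Lhcgr probe set, 1369033_at, was low in F1 and F2 vinclozolin testes. It read 12.8 and 11.0 on F1 vinclozolin arrays, against 52.4 and 65.8 on F1 control arrays. It read 10.2 and 18.2 in F2 vinclozolin against 43.4 and 48.1 in F2 control, and 44.1 and 31.0 in F3 vinclozolin against 52.6 and 33.9 in F3 control. The 4 vinclozolin arrays of F1 and F2 lay below every other array, and the F3 arrays of both lineages overlapped. The log2(signal + 16) difference was −1.42 ± 0.21 in F1 (limma, adjusted p = 2.18e-04), −1.04 ± 0.21 in F2 (adjusted p = 0.00387) and −0.14 ± 0.21 in F3 (adjusted p = 0.781). The vinclozolin arrays of F1 and F2 read near the level of the filter on low values, so the size of the fall was not well fixed. Over the alternatives the difference ran from −2.21 to −0.70 in F1 and from −1.67 to −0.49 in F2. The F test of a dependence on generation gave an adjusted p of 0.0568, short of the threshold.

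Prlr, the receptor for prolactin and placental lactogens, had 3 probe sets, of which 1 rose and 1 fell. The brightest, 1370384_a_at, read 169.6 and 264.4 on F1 vinclozolin arrays, against 145.2 and 136.7 on F1 control arrays. It read 189.6 and 178.2 in F2 vinclozolin against 136.7 and 138.9 in F2 control, and 219.7 and 210.7 in F3 vinclozolin against 122.0 and 138.6 in F3 control. All 6 vinclozolin arrays lay above all 6 control arrays, with the widest spread in F1 vinclozolin. The log2 difference was 0.54 ± 0.15 in F1 (limma, adjusted p = 0.0187), 0.38 ± 0.15 in F2 (adjusted p = 0.116), 0.66 ± 0.15 in F3 (adjusted p = 0.0305) and 0.53 ± 0.09 over the generations (adjusted p = 3.49e-04). The F1 value was 0.24 without F1 vinclozolin replicate 2 (adjusted p = 0.188), and the F1 call was also lost without either F1 control array (0.0696 and 0.118) and on the F1 arrays alone (0.113). The F3 call was lost with no filter on low values (adjusted p = 0.0633), without any single F3 array (0.140 to 0.277) and without any single F1 or F2 control array (0.0521 to 0.0538). F2 passed under median centring (adjusted p = 0.0451) and on the F2 arrays alone (0.0433). With the beta-actin covariate the difference turned to −0.86 in F1 and −0.33 over the generations, neither past the test (adjusted p = 0.670 and 0.782).

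The second Prlr probe set, 1370789_a_at, went the other way in F1 and F2. It read 23.9 and 18.7 on F1 vinclozolin arrays, against 52.2 and 72.4 on F1 control arrays. It read 24.9 and 26.6 in F2 vinclozolin against 68.2 and 59.3 in F2 control, and 57.8 and 59.2 in F3 vinclozolin against 49.1 and 41.8 in F3 control. Vinclozolin arrays lay below control arrays in F1 and F2 and above them in F3. It fell by 1.06 ± 0.17 in F1 (limma, adjusted p = 4.11e-04) and by 0.93 ± 0.17 in F2 (adjusted p = 0.00205), and was 0.28 ± 0.17 in F3 (adjusted p = 0.407). This was the 1 member whose difference depended on generation (limma F test, adjusted p = 0.0112), where 2.6% of all tested probe sets did. On 1370789_a_at the F1 and F2 vinclozolin arrays read towards the filter on low values, so the fall was not well fixed in size. Over the alternatives it ran from −1.50 to −0.56 in F1 and from −1.27 to −0.51 in F2. With the beta-actin covariate it was −0.77 in F1 and −0.74 in F2, neither past the test (limma, adjusted p = 0.781 and 0.575). The third Prlr probe set, 1369493_at, was faint, with 16.7 to 31.3 on vinclozolin arrays and 14.8 to 21.1 on control arrays, and passed no test.

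Probe sets of 1 gene can read different transcripts or different stretches of a transcript, so the distance between them was compared within each array. For Lhcgr the log2 distance of 1387423_at over 1369033_at was 3.08 ± 0.26 on vinclozolin arrays and 2.30 ± 0.25 on control arrays (SD, n = 6 each). The difference of 0.78 had p = 0.00216 in the exact permutation test over arrays (adjusted p = 0.00649 over 6 pairs of probe sets). Because 1369033_at read near the filter on F1 and F2 vinclozolin arrays, the size of the Lhcgr distance was not well fixed there. For Prlr the distance of 1370384_a_at over 1370789_a_at was 2.17 ± 0.51 on vinclozolin arrays and 1.07 ± 0.24 on control arrays (SD, n = 6 each), a difference of 1.10 with the same exact permutation p and adjusted p. These 2 of 6 pairs were called, and the p is the smallest that the splits of 6 against 6 arrays, which ignored generation, can give. The other 2 Prlr pairs and the Inhba and Fst pairs had adjusted p from 0.0552 to 0.221. As 1370789_a_at read 18.7 to 26.6 on F1 and F2 vinclozolin arrays, the size of the Prlr distance was not well fixed there either.

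By generation the Lhcgr distance was 3.16 ± 0.05, 3.30 ± 0.26 and 2.79 ± 0.00 in F1, F2 and F3 vinclozolin, against 2.15 ± 0.18, 2.26 ± 0.03 and 2.50 ± 0.40 in the matching controls (SD, n = 2 each). The Prlr distance was 2.62 ± 0.56, 2.26 ± 0.10 and 1.63 ± 0.06 in F1, F2 and F3 vinclozolin, against 1.01 ± 0.32, 0.95 ± 0.13 and 1.25 ± 0.24 in control. Both distances were nearest to control in F3, as was the beta-actin ratio. The part of RNA quality in these distances was not tested, since the files used here do not place the probe sets on the transcripts.

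**Figure D3:**
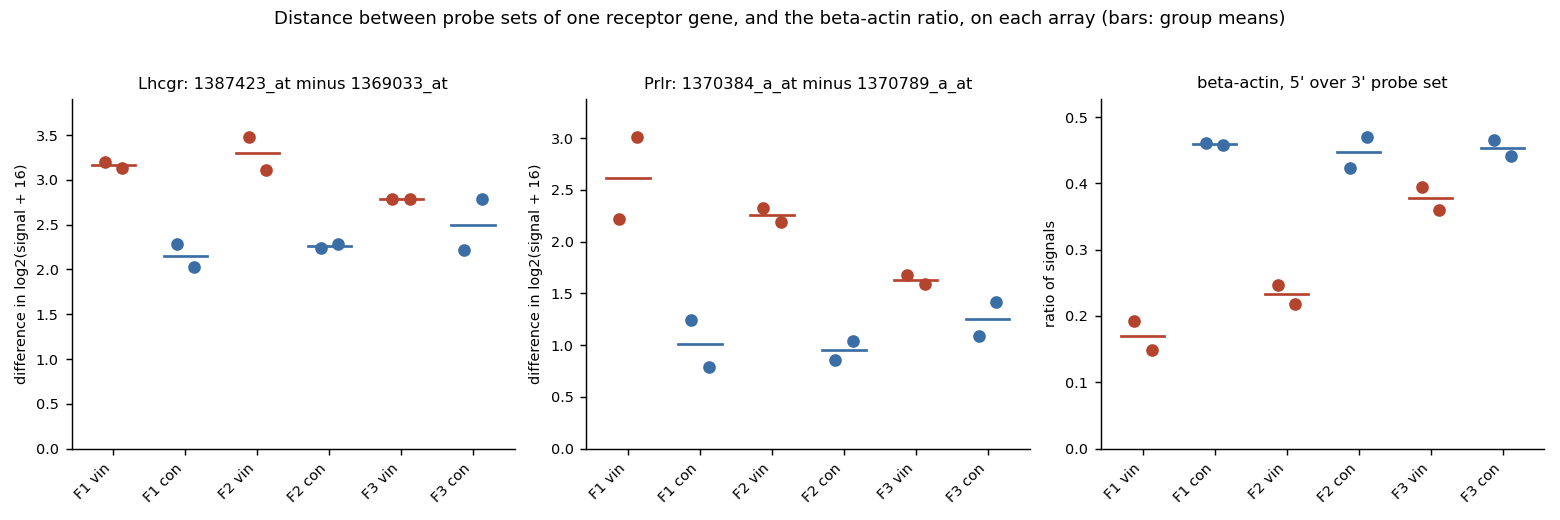
Difference in log2(signal + 16) between 2 probe sets of Lhcgr (left) and of Prlr (middle), and the 5' to 3' signal ratio of beta-actin (right), on each of the 12 arrays, with vinclozolin (red) left of control (blue) and bars for group means. Vinclozolin arrays lie above control arrays in the left and middle panels and below them in the right panel, with F3 vinclozolin nearest to control in each.

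Of the inhibin and activin subunits, the beta A gene rose, the beta B gene fell in F1, and the alpha gene passed no test. Inha (1387124_at) read 919.0 and 896.2 in F1 vinclozolin, against 858.5 and 855.4 in F1 control. It read 795.1 and 888.4 in F2 vinclozolin against 848.5 and 888.9 in F2 control, and 972.2 and 872.2 in F3 vinclozolin against 916.9 and 935.4 in F3 control. The arrays of the lineages overlapped in F2 and F3 and lay slightly apart in F1. The mean log2 difference was 0.01 with a 95% interval of −0.10 to 0.11 (limma, adjusted p = 0.915), and no alternative setting brought Inha past the threshold in any generation.

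Inhba, whose product forms activin A and inhibin A, read 184.0 and 195.0 on F1 vinclozolin arrays (1383486_at), against 130.5 and 104.1 on F1 control arrays. It read 171.3 and 158.8 in F2 vinclozolin against 117.1 and 111.1 in F2 control, and 159.9 and 135.5 in F3 vinclozolin against 124.7 and 120.0 in F3 control. All 6 vinclozolin arrays lay above all 6 control arrays, and the gap was widest in F1 and narrowest in F3. The log2 difference was 0.63 ± 0.13 in F1 (limma, adjusted p = 0.00233), 0.48 ± 0.13 in F2 (adjusted p = 0.0206), 0.24 ± 0.13 in F3 (adjusted p = 0.339) and 0.45 ± 0.07 over the generations (adjusted p = 2.71e-04). Leaving out any single F2 array ended the F2 call (adjusted p = 0.0694 to 0.130), and leaving out F1 control replicate 2 ended the F1 call (0.0509). Its other probe set, 1369012_at, was near the filter at 12 to 25.8 on vinclozolin arrays and 5.3 to 27.0 on control arrays, and passed no test.

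Inhbb, whose product forms activin B and inhibin B, read 570.4 and 419.7 on F1 vinclozolin arrays (1377163_at), against 688.9 and 648.8 on F1 control arrays. It read 601.5 and 651.1 in F2 vinclozolin against 640.9 and 702.9 in F2 control, and 686.1 and 579.4 in F3 vinclozolin against 707.9 and 633.7 in F3 control. The lineages were apart in F1 and overlapped in F2 and F3. It fell by 0.44 ± 0.13 in F1 (limma, adjusted p = 0.0215) and by 0.21 ± 0.07 over the generations (adjusted p = 0.0413), with −0.10 in F2 and −0.09 in F3 short of the threshold. The F1 value was −0.22 without F1 vinclozolin replicate 2 (adjusted p = 0.184), the F1 and mean calls were lost under median centring (adjusted p = 0.0703 and 0.239), and the mean call was lost without any of 9 single arrays and with no filter on low values (0.0668). The F1 call was also lost without either F1 control array (adjusted p = 0.136 and 0.0752) and on the F1 arrays alone (0.111), and with the beta-actin covariate the value turned to 0.96 in F1 and 0.65 for the mean (adjusted p = 0.528 and 0.418).

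Fst, the activin inhibitor, was faint and passed no test. Its probe set 1387843_at read 45.7 and 41.0 in F1 vinclozolin against 25 and 20.3 in F1 control, and 22.9 and 53.6 in F2 vinclozolin against 31.0 and 32.9 in F2 control. F3 vinclozolin read 22.7 and 28.2, against 25.6 and 29.7 in F3 control. The lineages were apart in F1 only, with a log2 difference of 0.62 ± 0.23 (limma, adjusted p = 0.0604) that passed the threshold under quantile normalization (adjusted p = 0.0292) and median centring (0.0252). The other probe set, 1372750_at, ranged from 22.1 to 31.0 on vinclozolin arrays and from 20.7 to 33.9 on control arrays. Across the 12 probe sets, arrays of the lineages did not overlap for 9 in F1, 7 in F2 and 4 in F3, where 58.4%, 58% and 55.4% of all tested probe sets did not.

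Genes that act with these hormones were read from lists chosen by function, with the brightest tested probe set of each gene. Over the 11288 genes so represented, 11.2% were called higher and 9.01% lower in F1, 6.02% and 5.11% in F2, and 1.21% and 1.51% in F3. Of 17 genes of activin and inhibin signalling 12 were tested, and 1 rose and 2 fell in F1, 1 fell in F2 and 1 fell in F3. The median difference of those 12 was −0.16, −0.01 and −0.19 in F1, F2 and F3, and that of all genes was 0.03, 0.04 and 0.01.

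Smad7, an intracellular inhibitor of TGF-beta and activin signals, fell in all 3 generations. Its brightest probe set read 102.0 to 156.9 on vinclozolin arrays and 161.5 to 216.7 on control arrays, with no overlap. The log2 difference was −0.57 ± 0.16 in F1 (limma, adjusted p = 0.0149), −0.81 ± 0.16 in F2 (adjusted p = 0.00322) and −0.70 ± 0.16 in F3 (adjusted p = 0.0263). Of its fainter probe sets, 1368897_at fell by 0.71 in F1 and 0.67 in F2 (adjusted p = 0.0209 and 0.0404), and 1368898_at was called in no generation. In F1 Zfyve9, which presents Smads to the receptor, rose by 0.67 ± 0.16 (adjusted p = 0.00647), and Smad2, a carrier of the activin signal, fell by 0.27 ± 0.09 (adjusted p = 0.0347). Smad7 lost its F1 call without F1 control replicate 1 (adjusted p = 0.126) and its F3 call without either F3 control array or F3 vinclozolin replicate 2 (0.189 to 0.265), the Zfyve9 call was lost without F1 control replicate 1 (0.0505), and the Smad2 call held under 12 of 23 alternatives.

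All 20 genes of the luteinising hormone receptor and cAMP list were tested, and 3 rose and 4 fell in F1, 2 rose and 1 fell in F2, and 0 passed in F3 (3 at an unadjusted p under 0.05 in limma), with medians of −0.15, 0.00 and −0.09. In F1 Pde8b, which breaks down cAMP, rose by 0.65 ± 0.21 (limma, adjusted p = 0.0397), and Creb1, a transcription factor activated by protein kinase A, fell by 0.58 ± 0.14 (adjusted p = 0.00839). Prkar2a, a regulatory subunit of that kinase, fell by 0.53 ± 0.14 in F1 (adjusted p = 0.0162), and Nr4a1, an early gene induced by luteinising hormone in Leydig cells, fell by 0.49 ± 0.14 (adjusted p = 0.0180). In F2 the catalytic subunit Prkacb rose by 0.66 ± 0.11 (adjusted p = 9.80e-04) and the regulatory subunit Prkar1a by 0.30 ± 0.08 (adjusted p = 0.0240), while Gnas, which encodes the stimulatory G protein, fell by 0.27 ± 0.08 (adjusted p = 0.0375). All 3 were called in the same direction in F1, with 0.32 for Prkacb, 0.43 for Prkar1a and −0.37 for Gnas (limma, adjusted p = 0.0444, 0.00164 and 0.00426). The Gnas call held under 10 of 23 alternatives in F2 and was lost in F1 without F1 control replicate 2 (adjusted p = 0.0712), the Prkacb call in F1 held under 10 of 23, and the Pde8b call under 11 of 22. Leaving out F1 vinclozolin replicate 2 or F1 control replicate 2 ended the calls of Prkar2a and Nr4a1 (adjusted p = 0.126 to 0.141), as did leaving out F1 control replicate 1 for Nr4a1 (0.0616) and F1 control replicate 2 for Creb1 (0.0650). The Prkar1a call in F2 was lost without either F2 control array or F2 vinclozolin replicate 2 (adjusted p = 0.103 to 0.151). Probe sets of 1 gene parted here as well: 1371835_at of Prkacb rose while 1384772_at fell by 1.51 in F1 and 0.82 in F2 (adjusted p = 2.93e-05 and 0.00524). Likewise 1388375_at of Prkar1a rose while 1373951_at fell by 0.25 in F1 and 0.32 in F2 (adjusted p = 0.0424 and 0.0180). Of the fainter Gnas probe sets, 1387906_a_at fell by 0.98 and 1390263_at by 1.14 in F2 (limma, adjusted p = 0.00295 and 0.00159). Neither was called in F1 or F3.

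In the prolactin receptor list 14 of 17 genes were tested, and 1 rose and 3 fell in F1, 1 rose and 3 fell in F2, and 2 fell in F3, with medians of −0.25, −0.17 and 0.00. Ghr, the related growth hormone receptor, read 12.7 to 61.4 on vinclozolin arrays and 52.2 to 69.4 on control arrays. It fell by 1.19 ± 0.20 in F1 (limma, adjusted p = 5.79e-04) and 1.04 ± 0.20 in F2 (adjusted p = 0.00284), with −0.37 in F3 (adjusted p = 0.339), and its other probe set was called in no generation. Socs2, a feedback inhibitor of these receptors, read 14.9 and 14.1 in F1 vinclozolin against 41.0 and 30.4 in F1 control, 3.1 and 3.8 in F2 vinclozolin against 44.4 and 42.1 in F2 control, and 39.7 and 37.3 in F3 vinclozolin against 38.5 and 23.0 in F3 control. It fell in F1 and F2, with log2 differences of −0.75 ± 0.19 and −1.61 ± 0.19 (limma, adjusted p = 0.0115 and 1.52e-04) and was not called in F3. The F1 call of Socs2 was lost without F1 control replicate 1 (adjusted p = 0.123), and the F2 call was not lost without any single array. The F2 vinclozolin values were near 0, so the size of that difference followed the pseudocount, at −3.32 with 1 and −0.67 with 64.

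The brightest Stat3 probe set, 1370224_at, fell in F2 and F3 (−0.90 ± 0.14 and −1.06 ± 0.14; limma, adjusted p = 7.31e-04 and 0.00111) and was −0.32 in F1 (adjusted p = 0.108). Its other probe set, 1371781_at, was 0.07, 0.32 and 0.28 in F1, F2 and F3, and was not called. The receptor-bound kinase Jak2 fell by 0.50 ± 0.14 in F1 (adjusted p = 0.0160), and the adaptor Shc1 rose by 0.38 ± 0.10 in F1 (adjusted p = 0.0130). The phosphatase Ptpn11 rose by 0.37 ± 0.12 in F2 (adjusted p = 0.0452), and the kinase Src fell by 0.51 ± 0.13 in F3 (adjusted p = 0.0498). The Src call held under 5 of 23 alternatives and the Ptpn11 call under 8 of 23, and another Src probe set, 1368830_at, fell by 1.05 in F1 and 0.87 in F2 (adjusted p = 0.00235 and 0.0133). The Jak2 and Shc1 calls were lost without either F1 control array or F1 vinclozolin replicate 2 (adjusted p = 0.0537 to 0.109).

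The relaxin family and the other gonadal and pituitary hormone genes gave no calls. Of 7 relaxin family genes, Rln1 alone was tested (0.04, 0.15 and 0.31 in F1, F2 and F3; limma, lowest adjusted p over the 3 generations 0.390), with 0 at an unadjusted p under 0.05. The Insl3 receptor Rxfp2 was not among the genes tested. Of 10 other hormone genes 4 were tested, of which 2, 0 and 1 had an unadjusted p under 0.05 in F1, F2 and F3 (limma). Among them were Amh, the Sertoli hormone that removes the Müllerian duct, with −0.19, 0.13 and −0.28 (adjusted p = 0.0990, 0.303 and 0.0642), and its receptor Amhr2, with −0.41 in F1 and −0.22 in F2 (adjusted p = 0.0907 and 0.424).

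**Figure D4:**
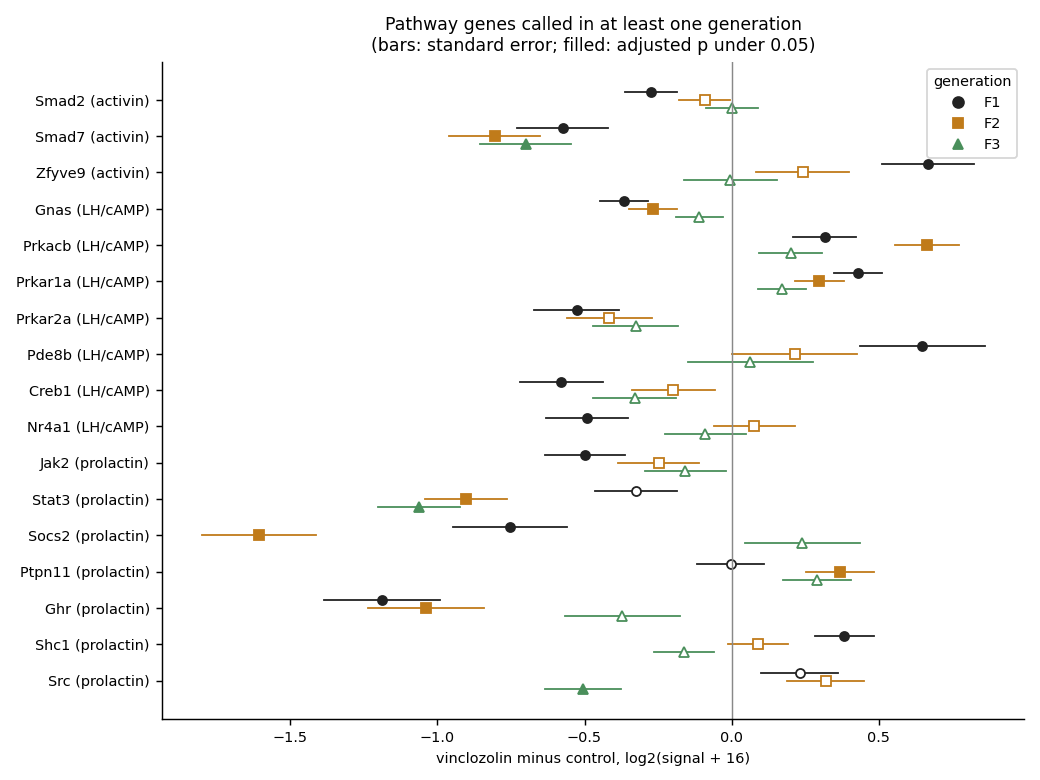
Difference between vinclozolin and control testes, in log2(signal + 16), for the pathway genes called in at least 1 generation, with standard errors; filled symbols have an adjusted p under 0.05. Smad7 lies left of 0 in F1, F2 and F3 with all 3 symbols filled, while Ghr and Socs2 lie far left in F1 and F2 and not called in F3.

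Summed marker signal differed between the lineages for some other cell types, though genes within a list did not all move together. Summed signal of 5 erythroid genes was 6141.1 to 8292.3 on vinclozolin arrays and 4912.9 to 5562.7 on control arrays, and that of 5 interstitial stroma genes was 6792.3 to 7334.4 on vinclozolin arrays and 7721.4 to 8253.6 on control arrays, neither overlapping. Hbb, at 4429.5 to 7345.5 over all arrays, made up most of the erythroid sum. Slc4a1 of that list had log2 differences of −0.37 in F1 and −0.25 in F2, not called. Among the stroma genes Pdgfra rose by 0.42 in F1 and 0.36 in F2 (limma, adjusted p = 0.00635 and 0.0238). The other stroma genes had negative differences in F1 and F2. The summed signal of 4 germ cell genes was 509.7 to 698.0 on vinclozolin arrays and 610.2 to 634.2 on control arrays, which overlapped. The adrenal cortex list, 4 genes of 6, summed to 91.5 to 122.1 on vinclozolin arrays and 58.2 to 95.4 on control arrays, with Cyp21a1 and Cyp11b1, its defining enzymes, too faint to be tested. The macrophage list summed to 115.3 to 163.7 on vinclozolin arrays and 158.1 to 202.1 on control arrays, and the granulosa list to 250.7 to 325.6 on vinclozolin arrays and 270.2 to 340.3 on control arrays, both overlapping. The granulosa sum includes the member Fst itself, at 20.3 to 53.6 over all arrays. The part of these cell types in the hormone and receptor results was not tested.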

How the data were processed

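The 12 arrays held pooled embryonic rat testis RNA, 2 arrays in each of 6 groups. Per the labels, RNA was extracted with Trizol and hybridised by standard Affymetrix procedures. The authors deposited linear signal intensity per probe set, from 0 to 9534.9. The trimmed mean was 125 on every array, as a global scaling gives. The software of that step is not given in the sources used here. Values were used as deposited and transformed as log2(value + 16). The 57 control probe sets and the lowest 30% by mean were left out. The number of arrays limits the precision.

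The linear model, in limma 3.58.1 under R 4.3.3, gave each of the 6 groups a mean and used every array (lmFit, then trended eBayes; 6 residual and 8.97 prior degrees of freedom). Its contrasts set vinclozolin against control within F1, F2 and F3, and took their mean, the dependence on generation and the differences among controls (F tests). With 2 arrays against 2, an exact permutation test cannot go below p = 0.333. Distances between probe sets were tested by exact permutation over arrays. The code was tested on simulated data. Alternatives changed the pseudocount, the normalization, the filter, array weights, the arrays fitted, a replicate block and the beta-actin ratio as a covariate, or left out single arrays.

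Of 31042 probe sets, 20826 had 1 gene symbol, 436 several and 9780 none, and 14168 of 14218 gene identifiers matched RefSeq's rat table. All member probe sets are named. Pathway lists name up to 4 called genes per contrast by size, or failing any call the 2 lowest p; cell type lists are given as sums. The Leydig genes, Hbb, Slc4a1 and Pdgfra, and the further probe sets of pathway genes, were named after their values were seen. Members, lists and alternatives were chosen with earlier results of these data known; cyclic loess was added after seeing the data. Same-numbered replicates deviated from their group means with correlations of −0.0932 to 0.0678 over 15 pairs of groups, so numbers were not read as pairs.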

Additional observations from a re-analysis of the deposited data

Results flagged for a closer look

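The second brightest of the 3 Prlr probe sets, 1370789_a_at, differed between generations in its vinclozolin minus control contrast. Signal was 23.9 and 18.7 in F1 vinclozolin against 52.2 and 72.4 in F1 control, 24.9 and 26.6 in F2 vinclozolin against 68.2 and 59.3 in F2 control, and 57.8 and 59.2 in F3 vinclozolin against 49.1 and 41.8 in F3 control. The F test of the difference itself in limma gave an adjusted p of 0.0112 over all tested probe sets. It was lost without any single F3 array and with the beta-actin ratio as a covariate.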

How the results depend on the processing

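Between 21 and 23 alternatives were computed for each member and comparison. The beta-actin ratio as a covariate was the setting that moved results most: 0 members were called in F1, F2, F3, the mean and the dependence on generation. It left 0, 0, 247, 0 and 3 probe sets called over the whole array in those comparisons. The ratio did not overlap between the lineages. Under it Insl3, not called in F1, turned to −0.21 there. Lhcgr 1387423_at turned to 0.41 in F1, Prlr 1370384_a_at to −0.86 in F1 and −0.33 for the mean, and Inhbb to 0.96 in F1 and 0.65 for the mean (log2; limma, adjusted p from 0.418 to 0.820). Of the other genes named as called, Smad2 turned to 0.21, Prkar2a to 1.18, Jak2 to 0.082, Shc1 to −0.22, Hsd17b3 to −0.47, Hsd3b1 to −0.78, Por to 0.16 and Scarb1 to 0.35 in F1, and Hsd17b3 to −0.10 and Scarb1 to 0.032 in F2 (adjusted p from 0.510 to 0.979), and Stat3 in F3 alone stayed past the threshold under every alternative. Members called numbered 3 in F1 from the F1 arrays alone and 1 in F3 with no filter on low values. The shares of all tested probe sets called were 10.6% and 1.13%. With a pseudocount of 64, 5 pairs of probe sets were called. The cause was not tested. Leaving out 1 array, which leaves 1 array in a group, changed the number of members called. F1 gave fewer without either F1 control array or F1 vinclozolin replicate 2, and more without either F2 vinclozolin array. F3 gave fewer without any single F3 array or any F1 or F2 control array. The dependence gave fewer without any F3 array. It gave more without either F2 vinclozolin array or F1 vinclozolin replicate 1. In each of these fits the share of all tested probe sets called moved the same way. The exception was the dependence without F2 vinclozolin replicate 2, where the share was slightly lower. Median centring shifted the median of all probe sets by 0.12 in F1 and F2 and 0.10 for the mean. Quantile normalization gave 3 members higher and 4 lower in F1, where 23.5% of all tested probe sets were called. Cyclic loess, chosen after seeing the data, called 7, 4, 2, 6 and 1 members in F1, F2, F3, the mean and the dependence. The shares of all tested probe sets were 22.6%, 13.6%, 2.61%, 32.5% and 2.54%. With the replicate block, members called were 6, 4, 2, 6 and 1 in the same order, the same numbers as without it. The shares were then 23.1%, 14.3%, 3.28%, 33.1% and 2.65%. Faint probe sets, such as those of Fst and the second Inhba set, lay near the filter, where pools and arrays limit what can be shown.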

Other observations

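Genes whose level ran most like a member's over the 12 arrays are given by Pearson's r of log2(signal + 16) with the member's brightest probe set, among all other tested probe sets with 1 gene symbol, as a description that shares lineage and RNA quality. For Insl3 they were Usp40 (0.968), Epm2aip1 (0.958) and Slc25a4 (0.954). For Lhcgr they were Mtmr12 (0.930), Uchl1 (0.927) and Srsf10 (0.915), and for Prlr C18h18orf32 (0.980), Mrps14 (0.975) and Srp14 (0.975). For Inhba they were Zcchc7 (0.962), Ddx1 (0.959) and LOC102548047 (0.946), and for Inhbb Skor1 (0.962), Wee1 (0.958) and Ccdc117 (0.957). For Fst they were Eef1akmt4 (0.924), Dhrs13 (0.913) and Ccl27 (0.903). Inha, which passed no test between lineages, had the lowest values, with Cask (0.806), Pex19 (0.798) and Tlcd3a (0.790). Between members, r was 0.79 for Prlr with Inhba, 0.72 for Insl3 with Prlr, 0.71 for Lhcgr with Inhbb and −0.72 for Prlr with Inhbb.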
